A study of Delphinapterus leucas with 24 samples.

Results

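The genes described here are those of the oxygen sensing pathway in the blood of beluga whales (Delphinapterus leucas), toothed whales that dive under Arctic ice. They were chosen by name as 10 Entrez Gene IDs, and 9 of the 10 were found among the 9855 distinct IDs of the deposited table. The 9 were HIF1A (Entrez Gene ID 3091), EPAS1 (2034), ARNT (405), EGLN1 (54583), EGLN2 (112398), EGLN3 (112399), VHL (7428), HIF1AN (55662) and VEGFA (7422). The table lists no feature under the ID of BNIP3 (664), a mitochondrial protein that directs mitochondria to degradation, so BNIP3 was not analysed here. Each of the 9 IDs was carried by a single feature of the assembly, and no member was listed at 0 in any library. Only 14079 of the 45872 features carried an ID. Any further part of a member among the rest would be missing from its level and from ratios between members.

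Whole blood of belugas sampled in Bristol Bay, Alaska, gave 24 libraries, with 8 from each of the years 2012, 2013 and 2014. The year groups held 3 females and 5 males in 2012, 4 and 4 in 2013, and 2 and 6 in 2014. All libraries of 2012 date from 1 to 12 September and all of 2013 from August. Those of 2014 span 25 August to 3 September. The year 2012 and a later date therefore cannot be told apart against 2013, while the dates of 2013 and 2014 overlap. Most libraries of 2012 also date later than every library of 2014, so year and date are largely tied there too. The labels give neither age nor any treatment, and do not say whether an animal was sampled in more than 1 year, so a p-value here reflects variation among libraries that may include technical variation.

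In animal cells the pathway turns the oxygen supply into changes of transcription. HIF1A and EPAS1 are alternative alpha subunits of the hypoxia inducible factors, and both pair with the beta subunit ARNT on DNA. When oxygen is present, the prolyl hydroxylases EGLN1, EGLN2 and EGLN3 mark the alpha subunit, VHL binds the marked protein and directs it to degradation, and the asparaginyl hydroxylase HIF1AN keeps the remainder from its coactivators. When oxygen is short the factor accumulates and raises target genes such as VEGFA, the growth factor of vessels. These roles are known from human and mouse work, and the main control acts on the protein, which RNA does not measure.

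Values are TPM, transcripts per 1000000, so that levels can be compared between genes per length of assembled transcript. A few features took very different shares of the TPM total. The 3 most abundant features of the table held between 2.72% and 54.3% of a library, and their mean share was 16.8% ± 15.9 in 2012, 26.1% ± 14.8 in 2013 and 34.2% ± 11.6 in 2014 (SD over 8 libraries each). Each library was therefore divided by a size factor, the median ratio of its features to their geometric mean over libraries, which lay between 0.475 and 1.59, and the result is called scaled TPM. TPM carries no depth, so the number of reads behind a value is unknown. In whole blood, fewer cells of a type and less RNA per cell cannot be told apart, and the libraries were not checked against blood cell markers, which need gene names that the table does not pair with its IDs.

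The sensors were led by EGLN2, whose deposited level averaged 169 ± 45.1 TPM (SD, n = 24). EGLN2 ranked at position 361 among the 9855 IDs by mean TPM. HIF1A came next at 59.0 ± 19.3 TPM, followed by EGLN3 at 48.0 ± 16.4 TPM (SD, n = 24 for both). ARNT averaged 28.4 ± 9.69 TPM, HIF1AN 23.6 ± 6.05 TPM and EGLN1 21.8 ± 5.66 TPM (SD, n = 24 each). VEGFA averaged 17.8 ± 9.02 TPM and VHL 4.65 ± 1.51 TPM (SD, n = 24 each). EPAS1 was the lowest of the 9 at 1.06 ± 0.407 TPM (SD, n = 24), at position 9832 of the IDs, close to the lowest mean that the table lists, 0.995 TPM.

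**Figure D1:**
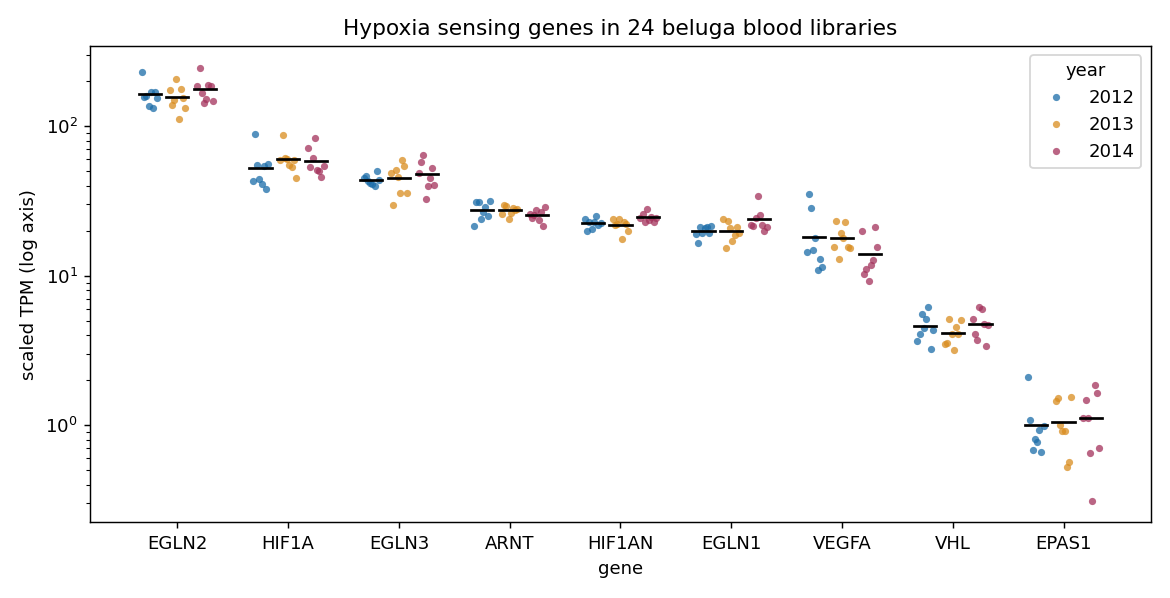
Scaled TPM of the 9 measured genes on a log axis, ordered by mean deposited level, with 1 point per library coloured by year and a black line at each year's mean (n = 8). EGLN2 lies above every other gene and EPAS1 below, and the years overlap in every gene.

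The order was read within each library, where the scaling cancels. EGLN2 was above HIF1A in 24 of 24 libraries, with a median ratio of 2.90. VEGFA was above VHL, and VHL above EPAS1, in all 24, with median ratios of 3.66 and 4.56. EGLN3 was above ARNT in 23 of 24 libraries. The remaining neighbours lay close together. HIF1A exceeded EGLN3 in 17 of 24 libraries, by 0.32 ± 0.46 (SD) on the log2 scale. EGLN1 exceeded VEGFA in 18 of 24, by 0.41 ± 0.65 (SD). HIF1AN exceeded EGLN1 in 20 of 24 libraries by 0.12 ± 0.17 (SD). ARNT exceeded HIF1AN in 19 of 24 by 0.22 ± 0.22 (SD). Each SD is the spread of single libraries, so the order of these pairs varied between libraries. Whether their mean differences depart from 0 was not tested.

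The 3 prolyl hydroxylases differ in role. In human and mouse cells EGLN1 is the main oxygen sensor for HIF1A, and EGLN3 is itself raised by the factor. In this blood EGLN2 exceeded EGLN1 by a median of 7.38 times, with a range over libraries of 4.21 to 12.1. EGLN2 exceeded EGLN3 by a median of 3.60 times (range 2.57 to 5.11). EGLN3 exceeded EGLN1 by a median of 2.14 times (range 0.949 to 3.16), and the single library with EGLN3 below EGLN1 was 2014 replicate 4, a female. Between the alpha subunits, HIF1A exceeded EPAS1 by a median of 57.8 times (range 20.6 to 163). HIF1A exceeded its partner ARNT by a median of 2.10 times (range 1.52 to 3.02).

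The members differed in how steady they were. The coefficient of variation of scaled TPM over the 24 libraries was 9.33% for HIF1AN and 10.4% for ARNT. Only 2.03% and 4.03% of the 9851 IDs tested had a lower one, and the median over those IDs was 20.7%. For IDs of like level, the 500 nearest in mean, the median was 17.65% around HIF1AN and 18.1% around ARNT. VEGFA had a coefficient of 36.8% against a median of 18.6% for its 500 nearest IDs, and its scaled level ranged 3.81-fold. EPAS1 had 43.0%, which is close to the 46.8% of the 295 IDs that surround it at the low end of the table. HIF1A had 23.9%, VHL 20.4%, EGLN2 18.8%, EGLN3 18.4% and EGLN1 17.2%. These are descriptions without a test.

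The comparison of years asked whether the pathway's RNA differed between sampling seasons. On the scaled values no member passed the threshold in any year comparison, at a Benjamini-Hochberg adjusted p under 0.05 in limma over 9851 IDs. In the F test over the 3 years 0 of 9 members were called, against 1.46% of all IDs. At an unadjusted p under 0.05 were 1 member, EGLN1, and 2452 of the 9851 IDs. For 2014 minus 2012 it was 0 of 9, against 5.76% of all IDs (567 called). EGLN1 was again the only member under an unadjusted 0.05, beside 2620 IDs. For 2013 minus 2012 and for 2014 minus 2013 it was 0 of 9 members and 0% of all IDs in limma, with 165 and 2923 IDs, and 0 and 1 members, at an unadjusted p under 0.05. limma without its trend option also called 0 members and 0 IDs in both comparisons. The counts over all IDs rest on single libraries. The scaled count of members stayed at 0 with each library left out. With only 9 members, a count of 0 is not far from the share of all IDs and does not set the members apart. For 2014 minus 2012 limma called 0 IDs without 2012 replicate 4, 10 without 2012 replicate 8 or 2014 replicate 4, and 1570 without 2012 replicate 1. The F test ran from 0 IDs, as without 2012 replicate 4 or 2014 replicate 4, to 1098 without 2012 replicate 1. For 2014 minus 2013 it called 1345 IDs without 2014 replicate 7, 1074 without 2013 replicate 4, 871 without 2012 replicate 1 and 701 without 2014 replicate 8. The 2013 minus 2012 count was 0 with each library left out.

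The alpha subunit HIF1A was at 38.2 to 88.9 scaled TPM in 2012 with a median of 49.1. It was at 45.03 to 87.9 in 2013 (median 59.7) and at 45.7 to 83.0 in 2014 (median 53.7). The 3 years overlapped over most of their ranges. The difference of 2014 minus 2012 was 0.19 ± 0.15 (SE) on the log2(scaled TPM + 1) scale, with a 95% interval from -0.12 to 0.50 and an adjusted p of 0.440 in limma. For 2013 minus 2012 it was 0.21 ± 0.15 (SE, adjusted p = 0.9998), with an interval from -0.10 to 0.52. With each library left out the first ran from 0.10, without 2014 replicate 4, to 0.29, without 2012 replicate 2. Over 12 other settings the first ran from -0.35, as deposited, to 0.27, and the second from -0.38 to 0.45. The sign turned in 2 and 1 of those settings.

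EPAS1, the alpha subunit best known from vessel lining and from the control of red cell production in mice and humans, was at 0.667 to 2.10 scaled TPM in 2012 (median 0.871). It was at 0.523 to 1.55 in 2013 (median 0.955) and at 0.313 to 1.86 in 2014 (median 1.11). All 3 ranges overlapped. The 2014 minus 2012 difference was 0.06 ± 0.17 (SE, adjusted p = 0.857 in limma), with a 95% interval from -0.30 to 0.41, and this scale understates changes of so low a gene.

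The beta subunit ARNT lay between 21.6 and 31.4 scaled TPM in 2012 (median 27.8), between 23.9 and 29.9 in 2013 (median 27.6) and between 21.4 and 28.8 in 2014 (median 25.7). The years overlapped. Its 2014 minus 2012 difference was -0.10 ± 0.08 (SE, adjusted p = 0.461 in limma), with a 95% interval from -0.27 to 0.07.

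EGLN1 was the member nearest to the threshold. It was at 16.5 to 21.4 scaled TPM in 2012 (median 20.05), at 15.4 to 24.0 in 2013 (median 20.2) and at 19.9 to 34.2 in 2014 (median 21.9). The 2014 range overlapped both others, and its highest value, in 2014 replicate 4, stood well above the next, 25.5. EGLN1 was higher by 0.25 ± 0.10 (SE) in 2014 than in 2012, with an unadjusted p of 0.0242 and an adjusted p of 0.128 in limma. Its 95% interval ran from 0.03 to 0.46, or 1.02-fold to 1.37-fold. Without 2014 replicate 4 the difference was 0.16 (adjusted p = 0.343 in limma). No member was then at an unadjusted p under 0.05, beside 1927 of the 9851 IDs. The 2014 minus 2013 difference was of like size, 0.25 ± 0.10 (SE, adjusted p = 0.121 in limma), and was 0.15 without the same library. Neither difference passed the correction. The median of all IDs was itself at 0.12 for 2014 minus 2012 and 0.16 for 2014 minus 2013. Without 2014 replicate 4 these medians were 0.095 and 0.13.

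The other hydroxylases overlapped between the years. EGLN2 had medians of 157 in 2012, 152 in 2013 and 175 scaled TPM in 2014, within ranges of 133 to 232, 112 to 208 and 144 to 247. Its 2014 minus 2012 difference was 0.10 ± 0.13 (SE, adjusted p = 0.661 in limma; 95% interval -0.17 to 0.36). EGLN3 had medians of 43.4, 47.4 and 46.8 scaled TPM in the 3 years, and it spread more widely in 2013 (29.6 to 59.2) and 2014 (32.4 to 64.5) than in 2012 (39.8 to 50.0). The difference in spread was not tested. Its 2014 minus 2012 difference was 0.07 ± 0.13 (SE, adjusted p = 0.747 in limma; 95% interval -0.20 to 0.34). HIF1AN, the asparaginyl hydroxylase, had medians of 22.7, 22.1 and 24.2 scaled TPM, within ranges of 19.95 to 25.04, 17.7 to 24.1 and 22.7 to 28.0. It was higher by 0.12 ± 0.07 (SE) in 2014 than in 2012 (adjusted p = 0.315 in limma) and by 0.15 ± 0.07 (SE) than in 2013 (adjusted p = 0.170). The median of all IDs was higher by 0.12 and 0.16 in the same comparisons, so HIF1AN lay close to the median ID.

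VHL, which recognises the hydroxylated alpha subunit, was at 3.25 to 6.19 scaled TPM in 2012 (median 4.40), at 3.18 to 5.15 in 2013 (median 4.07) and at 3.37 to 6.15 in 2014 (median 4.71). The years overlapped almost fully. The 2014 minus 2012 difference was 0.05 ± 0.13 (SE, adjusted p = 0.830 in limma), with a 95% interval from -0.21 to 0.31.

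VEGFA, a target gene of the factor, was at 10.98 to 35.2 scaled TPM in 2012 (median 14.6), at 12.8 to 23.2 in 2013 (median 16.8) and at 9.25 to 21.1 in 2014 (median 12.2). The years overlapped, and 2 females of 2012, replicates 2 and 3, gave the 2 highest values at 35.2 and 28.1. VEGFA differed by -0.27 ± 0.20 (SE) between 2014 and 2012, with an adjusted p of 0.381 in limma. The 95% interval from -0.68 to 0.13 on the log2 scale corresponds to 0.626-fold to 1.10-fold. With each library left out the difference ran from -0.35 to -0.14, the latter without 2014 replicate 4, and it was -0.15 without 2012 replicate 2. In the male libraries alone the sign turned, with a value of 0.04.

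The scale of the values decided the sign of most of these differences. On the TPM as deposited all 9 members were lower in 2014 than in 2012, and ARNT alone passed, at -0.63 ± 0.22 (SE) on the log2 scale and an adjusted p of 0.0463 in limma. VEGFA was at -0.78 ± 0.27 (SE, adjusted p = 0.0510). On this scale 11.0% of all IDs were called lower in 2014, so 1 of 9 members is near the background. Without 2012 replicate 1, the library of that year with 54.2% of its TPM in the 3 abundant features, 8 of 9 members were called lower, beside 75.8% of all IDs, and EPAS1 was the exception. With any other library of 2012 left out, or 2014 replicate 1, 2, 4, 5 or 7, or 2013 replicate 1, 7 or 8, 0 members were called, and without 2013 replicate 4 or 6, or 2014 replicate 6 or 8, 2 members were. The IDs called moved too, from 18 to 1012 of 9854 where 0 members were called and from 1034 to 1288 where 2 were.

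Set against the median of all IDs, 8 of the 9 members had like values on both scales. That median was -0.38 as deposited and 0.12 after scaling, while the median of the 9 members was -0.42 and 0.07. Relative to the median ID, VEGFA differed by -0.40 on both scales, ARNT by -0.25 as deposited and -0.22 scaled, and EGLN1 by 0.10 and 0.12. HIF1A differed by 0.03 and 0.06, and HIF1AN by -0.03 and -0.01. EPAS1 was the exception, at 0.22 as deposited and -0.07 scaled. The share of the 3 abundant features moved with the year. With its log2 value in the scaled limma model 0 members and 0 IDs were called between 2014 and 2012, with 0 members and 1149 IDs at an unadjusted p under 0.05.

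**Figure D2:**
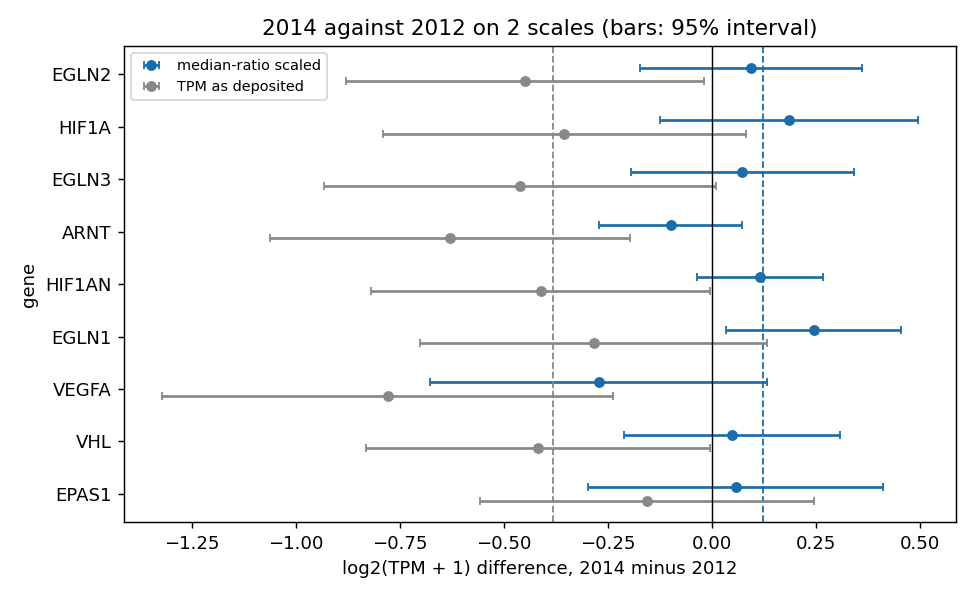
Difference of 2014 minus 2012 on the log2(TPM + 1) scale for each gene, with 95% intervals, after median-ratio scaling (blue) and as deposited (grey); dashed lines mark the median of all IDs on each scale. The grey points all lie below 0, and most blue points lie near 0, each set around its own dashed line.

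The sexes were compared with year in the model. On the scaled values 0 of 9 members were called in limma, against 0.132% of all IDs (13 called). At an unadjusted p under 0.05 were 0 members and 339 of the 9851 IDs. VEGFA had the largest difference of the 9, with 9.25 to 35.2 scaled TPM in the 9 females (median 17.9) and 10.3 to 23.2 in the 15 males (median 14.4). The groups overlapped, and the male minus female difference was -0.28 ± 0.17 (SE, adjusted p = 0.9997 in limma; 95% interval -0.63 to 0.07). EGLN3 differed by 0.12 ± 0.11 (SE, adjusted p = 0.9997). HIF1A was at 59.6 ± 16.6 scaled TPM in females (SD, n = 9) and 55.7 ± 12.0 in males (SD, n = 15), a difference within that spread.

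How the members moved together was asked over the 36 pairs, on log2(scaled TPM + 1) over the 24 libraries. A pair was called at a permutation p adjusted over the 36 under 0.05. Among the 36, 4 passed, 3 positive and 1 negative, and the median r was 0.02. The share of all ID pairs that would pass was not computed, on this scale or as deposited. With EGLN1 alone, 1040 of the 9850 other IDs exceeded an r of 0.7 on the scaled values, which no member pair reached. As deposited all 36 pairs were positive with a median r of 0.678, and 29 passed. On that scale 8 of 9 members fell as the log2 share of the 3 abundant features rose, with r between -0.865 for HIF1AN and -0.606 for VEGFA, and EPAS1 at -0.279. How many of all IDs did so was not computed. The TPM total is nearly fixed, so a larger share of those features leaves less for all others. A fall as deposited was thus largely set in advance. After scaling 0 of 9 members passed against that share, with r from -0.397 for ARNT to 0.408 for HIF1AN, and 1 had an unadjusted permutation p under 0.05.

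**Figure D3:**
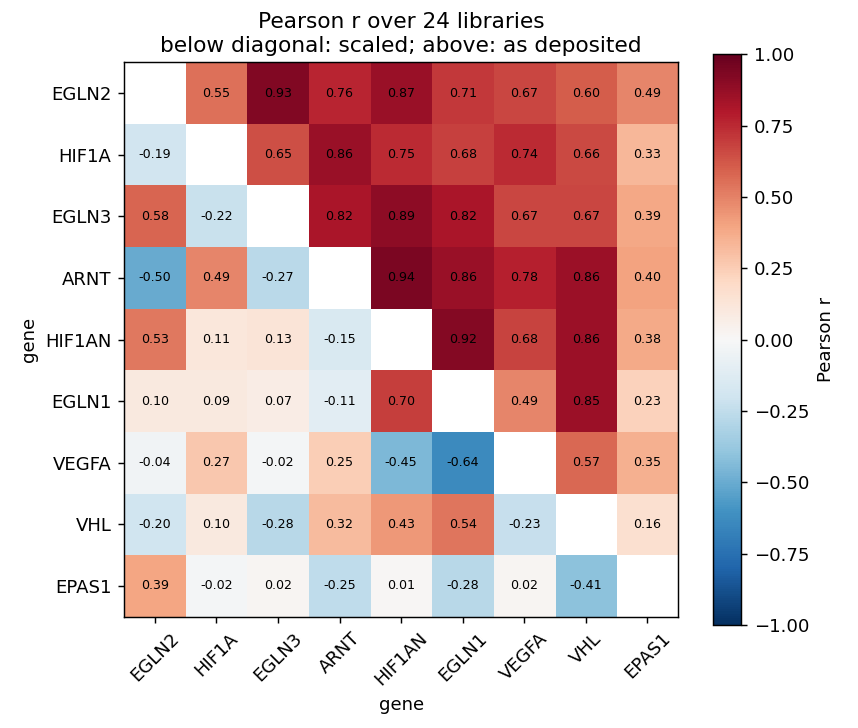
Pearson r between the 9 genes over 24 libraries, with scaled values below the diagonal and values as deposited above it. Above the diagonal every r is positive, with a median of 0.678, whereas below it the signs are mixed and the median is 0.02.

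EGLN1 rose with HIF1AN, a hydroxylase of another class, with r = 0.695 (permutation p = 0.00038, adjusted p = 0.0137). Its Spearman rho was 0.576 (permutation p = 0.00385, adjusted p = 0.0462). Without the 2 libraries farthest from the median of EGLN1, 2013 replicate 2 and 2014 replicate 4, r was 0.631 (adjusted permutation p = 0.0283). Within the years r was 0.698, 0.535 and 0.681 for 2012, 2013 and 2014 (n = 8 each, exact permutation p from 0.0546 to 0.172). With quantile normalisation r fell to 0.200 (adjusted permutation p = 0.604), so the relation depends on the scaling.

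EGLN2 rose with EGLN3, with r = 0.581 (permutation p = 0.00279, adjusted p = 0.0335) and rho = 0.660 (permutation p = 0.0006, adjusted p = 0.0216). Without 2012 replicate 1 and 2014 replicate 2, the farthest from the median of EGLN2, r was 0.598 (adjusted permutation p = 0.0383). Within the years it was 0.472, 0.619 and 0.640 (n = 8 each, exact permutation p from 0.0833 to 0.238). It was 0.580 with quantile normalisation and 0.926 as deposited. Among the 9850 other IDs, EGLN3 ranked at 1817 by r with EGLN2, and EGLN2 at 259 by r with EGLN3.

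EGLN1 and VEGFA moved in opposite directions, with r = -0.639 (permutation p = 0.00082, adjusted p = 0.0148) and rho = -0.612 (permutation p = 0.00168, adjusted p = 0.0302). Without 2013 replicate 2 and 2014 replicate 4, r was -0.554 with an adjusted permutation p of 0.0652, so the call rests on those libraries. Within the years r was -0.532, -0.726 and -0.688 (n = 8 each, exact permutation p from 0.0423 to 0.182). Quantile normalisation gave r = -0.660, whereas the values as deposited gave r = 0.491, where all members moved together. EGLN1 also rose with VHL (r = 0.539, permutation p = 0.00534, adjusted p = 0.0481), but the Spearman rho of 0.447 did not pass (permutation p = 0.0303, adjusted p = 0.159). Without the same 2 libraries r fell to 0.374, so that this pair rests on them, and with a pseudocount of 0.1 its adjusted permutation p was 0.0504.

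HIF1A and its target VEGFA did not pass, with r = 0.266 (permutation p = 0.207, adjusted p = 0.467) and rho = 0.181. Without 2012 replicate 2 and 2013 replicate 2, the highest in HIF1A, r was -0.144. HIF1A and ARNT, partners in the same dimer, had r = 0.486 (permutation p = 0.0160, adjusted p = 0.0821). That value fell to 0.334 without those 2 libraries. With quantile normalisation the pair passed, with r = 0.594 (adjusted permutation p = 0.0335), and as deposited r was 0.863. HIF1A and EGLN1 went the other way, with r = 0.095 over all libraries (adjusted permutation p = 0.815). Without 2012 replicate 2 and 2013 replicate 2 their r was 0.662 (adjusted permutation p = 0.0283). Without the same libraries, quantile normalisation gave them r = 0.481 (adjusted permutation p = 0.253).

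**Figure D4:**
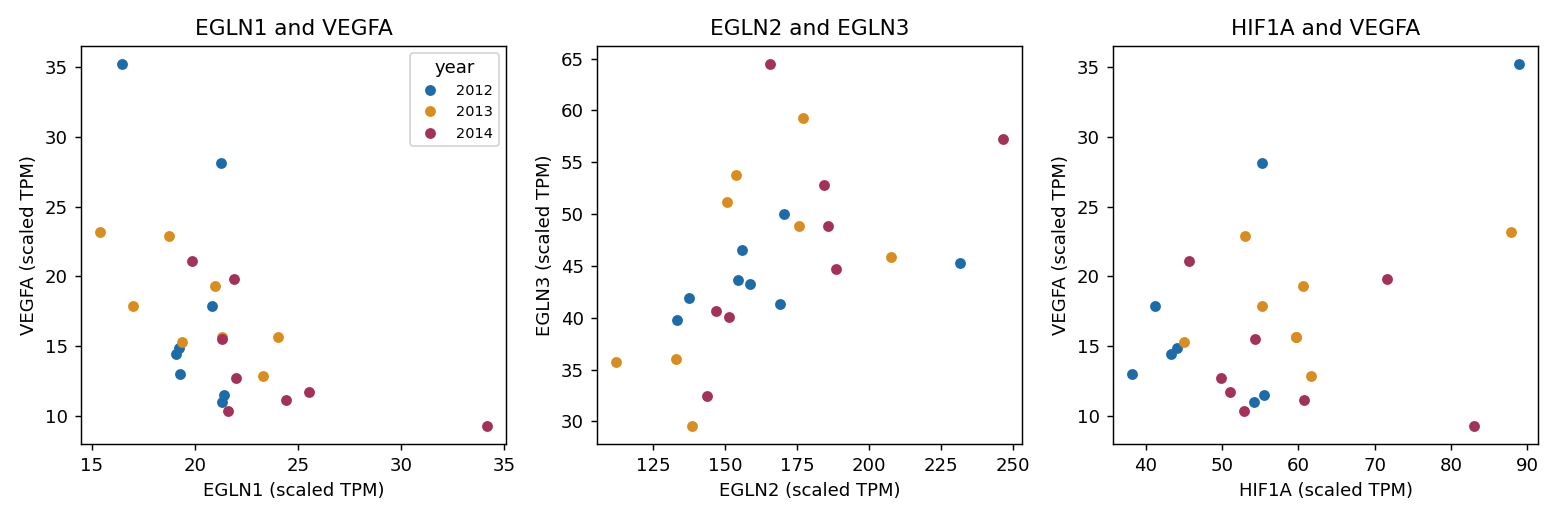
Scaled TPM of 3 pairs of genes, with 1 point per library coloured by year (n = 24). EGLN1 and VEGFA run in opposite directions, EGLN2 and EGLN3 rise together, and HIF1A and VEGFA show no shared order beyond single libraries.

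On the scaled values, the library with the most HIF1A of each year showed where HIF1A and VEGFA parted. In 2012 replicate 2, HIF1A was at 88.9 scaled TPM while the rest of the year lay at 38.2 to 55.5. VEGFA was also the highest of that year there, at 35.2, and EGLN1 the lowest, at 16.5. In 2013 replicate 2, HIF1A was at 87.9 against 45.03 to 61.6, with VEGFA again the highest of the year at 23.2 and EGLN1 the lowest at 15.4. In 2014 replicate 4, HIF1A was at 83.0 against 45.7 to 71.6, but VEGFA was the lowest of the year at 9.25, and EGLN1 (34.2), HIF1AN (28.0) and VHL (6.15) were the highest. The other prolyl hydroxylases, EGLN2 (144) and EGLN3 (32.4), were the lowest of 2014 there. As deposited, HIF1A (111 TPM) and VEGFA (43.8) stayed the highest in 2012 replicate 2, but EGLN1 (20.5) was not the lowest. In 2013 replicate 2, HIF1A (71.7) and VEGFA (19.0) were not the highest. In 2014 replicate 4, with a size factor of 0.478, HIF1A (39.65), EGLN1 (16.3) and VHL (2.94) were not the highest. HIF1AN (13.4) was the lowest of that year, as VEGFA, EGLN2 and EGLN3 still were. The libraries named here held 15.5%, 45.5% and 54.3% of their TPM in the 3 abundant features, and the part of that share in the pattern was not tested. They were singled out after their values were seen.

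Ratios of members within a library do not depend on any scaling, and 7 of them were compared between years and sexes with 2-sided exact permutation tests, adjusted over 28 tests. None of the 28 passed, and the smallest adjusted p was 0.905. The HIF1A to ARNT ratio lay at 1.52 to 2.87 in 2012 (median 1.81) and at 1.88 to 3.02 in 2014 (median 2.17). Its log2 difference of 0.28 had an exact permutation p of 0.0522 (adjusted p = 0.905). The groups overlapped. Without 2012 replicate 2, which held the ratio of 2.87, the difference was 0.37 and the unadjusted exact permutation p 0.00264. It was also under 0.05 without 2014 replicate 6 (0.32, exact permutation p = 0.0345) or replicate 8 (0.32, exact permutation p = 0.0359). In 13 of the 16 omissions the exact permutation p did not fall under 0.05, and it reached 0.101. The VEGFA to HIF1A ratio lay at 0.203 to 0.509 in 2012 (median 0.338) and at 0.112 to 0.462 in 2014 (median 0.242). Its log2 difference of -0.51 had an exact permutation p of 0.0803 (adjusted p = 0.905). Left out in turn, 2012 replicate 6, 2012 replicate 8 and 2014 replicate 7 gave unadjusted exact permutation p-values of 0.0395, 0.0427 and 0.0196. The other 13 of 16 omissions gave none under 0.05, with an exact permutation p of up to 0.159. The ratios among EGLN1, EGLN2 and EGLN3 differed by at most 0.16 in size on the log2 scale between any 2 years.

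**Figure D5:**
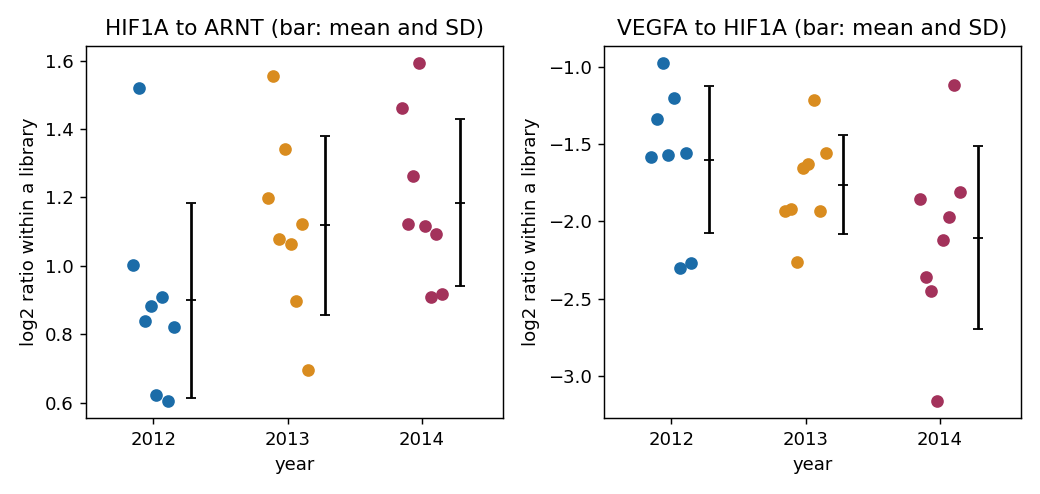
Log2 ratio of 2 genes within each library by year, with the mean and SD beside the points (n = 8 per year). The mean of HIF1A to ARNT is 1.18 in 2014 and 0.90 in 2012, and both ratios overlap between all years.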

How the data were processed

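Per the labels' protocols, RNA of whole blood was extracted with a PAXgene kit and made into directional libraries with a NEBNext Ultra kit. Per the series' design text, reads were put together into transcripts with Trinity and no genome. The submitters' processing notes name Trimmomatic, Bowtie2 and RSEM 1.2.21, with no role or order. The deposited values are read as TPM, since the columns sum to between 987069 and 997966 and are not whole. The roles of those tools, the genome build and how the authors assigned Entrez Gene IDs are not stated in those texts, and 1 cell of that column that held a date was left out.

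TPM was summed per ID, divided by median-ratio size factors from features above 0 in all libraries, and fitted as log2(value + 1) with limma 3.58.1 in R 4.3.3 (trend, robust) over IDs that reached 1 TPM in 8 libraries. All 24 libraries entered, with year and sex as terms. IDs were called at an adjusted p under 0.05. The fit and the permutation test were tested on simulated data. Correlations used 100000 permutations (scipy 1.17.1), 2-sided.

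The members and lists were chosen with earlier results of these data known. The ratios, the abundant share in place of a globin share, and the libraries named for high HIF1A were chosen after the data were seen. The wider pathway lists and blood cell markers, written as symbols, were not analysed here, because the table gives no symbols. The members' symbols come from the list that chose them. No protein or promoter sequence was used here. The rule for naming genes took every member of the list and, for each, the IDs most like it over the libraries.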

Additional observations from a re-analysis of the deposited data

Results flagged for a closer look

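In 10 of 48 sets of 8 libraries (9 genes and 7 ratios, by year) a single extreme library stood apart by Dixon's criterion, which marks about 1 set in 20 by chance. The sets share libraries and genes, so they are not independent. On the log2(scaled TPM + 1) scale HIF1A stood apart in 2012 replicate 2, at 6.49 against 5.29 to 5.82, and in 2013 replicate 2, at 6.47 against 5.53 to 5.97. EPAS1 stood apart in 2012 replicate 1, at 1.63 against 0.74 to 1.06, and so did EGLN2, at 7.86 against 7.07 to 7.42. EGLN1 was low in 2012 replicate 2, at 4.13 against 4.33 to 4.49, and high in 2014 replicate 4, at 5.14 against 4.38 to 4.73. Among the log2 ratios, HIF1A to ARNT was high in 2012 replicate 2, at 1.52 against 0.60 to 1.00, and VHL to HIF1A was low there, at -4.45 against -3.68 to -3.01. HIF1A to EPAS1 was low in 2012 replicate 1, at 4.36 against 5.74 to 6.36. EGLN2 to EGLN3 was low in 2014 replicate 3, at 1.36 against 1.80 to 2.15. The ratios do not depend on the scaling, but the gene values do. As deposited, EGLN2 in 2012 replicate 1 was the lowest of that year, at 110 TPM. EPAS1 there was at 1.00 TPM, in a year's range of 0.84 to 1.57. EGLN1 in 2014 replicate 4 was at 16.3 TPM as deposited (year's range 16.05 to 24.7). HIF1A in 2013 replicate 2 was at 71.7 TPM (year's range 43.9 to 82.4).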

How the results depend on the processing

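On scaled or quantile-normalised values limma called 0 members between years or sexes under every setting tried and with each library left out. As deposited it called 1 for 2014 minus 2012. That count was 0 with the abundant share in the model and ran from 0 to 8 when each library was left out. Without 2012 replicate 1, 8 members were called as deposited in the F test, beside 6095 of all 9854 IDs. For 2014 minus 2013 it was then 1 member, beside 672 IDs. Signs of small differences turned, and the cause was not tested. For 2014 minus 2012 as deposited, HIF1A was at -0.35, EPAS1 -0.16, EGLN1 -0.28, EGLN2 -0.45, EGLN3 -0.46, VHL -0.42 and HIF1AN -0.41. With the day of the year, HIF1A was at -0.29, EPAS1 -0.33, EGLN2 -0.28 and EGLN3 -0.028. With the abundant share, EPAS1 was at -0.13, EGLN2 -0.0072 and VHL -0.0005. In males alone, EPAS1 was at -0.0071 and VEGFA 0.036. With quantile normalisation, EGLN2 was at -0.13, EGLN3 -0.094, VHL -0.036 and HIF1AN -0.030, and with array weights VHL at -0.043. With each library left out, EPAS1 ran from -0.012 to 0.16 and VHL from -0.0042 to 0.13. For 2014 minus 2013 as deposited, EGLN1 was at -0.17 and HIF1AN -0.26, and with quantile normalisation HIF1AN at -0.019. For 2013 minus 2012 with the day of the year, HIF1A was at -0.38. Member pairs that passed numbered 29 as deposited, 0 within 2012, 1 within 2013 and 0 within 2014, against 4 pooled. With quantile normalisation 3 passed, where HIF1A with ARNT entered and EGLN1 with HIF1AN and with VHL left, and 3 passed with a pseudocount of 0.1. The r of EGLN1 with VEGFA was 0.491 as deposited. Members that passed against the abundant share numbered 8 as deposited, where the nearly fixed TPM total largely sets a fall in advance, against 0 scaled. Between 2014 and 2012, limma called 284 of all IDs with quantile normalisation, 1297 with array weights, 0 with the day of the year and 0 in males alone (537 and 1686 at an unadjusted p under 0.05), against 567. Between 2014 and 2013 it called 2024 with the day of the year and 1483 with array weights, against 0. EPAS1 was not tested under the 5 TPM filter. No paired analysis was possible because replicate numbers only name libraries. Without read counts, the limit that depth sets is unknown.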

Other observations

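For each member the IDs most like it over the 24 libraries were found by Pearson r on log2(scaled TPM + 1), as a description among 9850 other IDs. The closest ID to EGLN2 had r = 0.948 and that to EGLN1 r = 0.920, and 986 and 1040 IDs exceeded an r of 0.7 with them. No ID reached 0.7 with EPAS1, 10 did with VEGFA and 16 with HIF1A. The members were not each other's closest. ARNT, the closest member to HIF1A, ranked at position 392 among the IDs most like HIF1A, EGLN3 at 1817 for EGLN2, EGLN2 at 259 for EGLN3, HIF1AN at 1093 for EGLN1, EGLN1 at 589 for HIF1AN and HIF1A at 513 for VEGFA.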
